A study of Mus musculus with 9 samples.

Results

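The 9 genes described here encode the 3 chains of C1q (C1qa, C1qb and C1qc), 5 further components of the complement cascade (C2, C4b, Cfb, C3 and Cfp) and the receptor for the C3 fragment C3a (C3ar1). They were selected by name, with earlier results of these data known, and each had a row in the counts, which cover 18755 genes. RNA had been sequenced from primary tumors that grew after 1000000 cells of 4T1, a metastatic mammary carcinoma line from a BALB/c mouse, were injected into a mammary fat pad of female BALB/c mice aged 6 to 10 weeks. From day 15 after injection and for 5 days, mice were given either 50 mg/kg of BI 853520 (BI), a small-molecule inhibitor of focal adhesion kinase (FAK), or its vehicle, 0.5% Natrosol, alone. Vehicle-treated tumors numbered 3 (replicates 1 to 3) and BI-treated tumors 6 (replicates 4 to 9). The study had kept only tumors whose RNA was of sufficient quality. The hosts were syngeneic and immunocompetent, each library came from a piece of a whole tumor, and host cells and carcinoma cells were not separated.

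Complement is a cascade of plasma and tissue proteins that tags surfaces for phagocytosis and attracts leukocytes. C1q recognizes its targets and, through the proteases C1r and C1s, starts the classical pathway, in which C4 and C2 form an enzyme that cleaves C3. In the alternative pathway, factor B (Cfb) forms the corresponding enzyme with C3 itself, and properdin (Cfp) stabilizes it. Liver makes most plasma complement, whereas C1q comes mainly from macrophages and dendritic cells, and macrophages in tumors are a known source of it. C3ar1 is a G protein-coupled receptor found on myeloid cells among others.

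The sum of all gene counts in a tumor ranged from 16931607 to 33850245, and 13966 genes passed the filter on low counts and were tested. Expression is given as CPM (counts scaled to a library of 1000000 after TMM normalization), as mean ± SD of 3 tumors given vehicle or 6 given BI. All 9 genes passed the filter. A gene was called higher or lower where edgeR's quasi-likelihood test, adjusted by Benjamini-Hochberg over all genes tested, gave 0.05 or less, and all adjusted p values below come from that test. Of the 9 genes, 7 were called higher in BI-treated tumors, where 14.6% of all genes tested were, and 0 were called lower, where 14.1% of all genes tested were (C2 alone of the 9 had an unadjusted p under 0.05 in that direction, and DESeq2 and limma-voom also called 0 lower). The same 7 genes were higher in every BI-treated tumor than in every vehicle-treated tumor, a pattern shown by 14.1% of all genes tested. The median log2 fold change of the 9 genes was 0.94, that of all genes tested -0.0037. Since the 9 genes were chosen with earlier results known, these shares describe them and are not a test of them. The labels number the tumors separately but name neither animals nor batches, and p values measure the spread between these samples, which may in part be technical.

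In Entrez identifiers, the genes are C1qa (12259), C1qb (12260), C1qc (12262), C2 (12263), C4b (12268), Cfb (14962), C3 (12266), Cfp (18636) and C3ar1 (12267). All 9 are protein-coding genes on the minus strand, on chromosomes 4, 17, X and 6. Of the markers of the injected carcinoma cells, the keratins Krt8 and Krt18 were abundant in both groups (at least 394 CPM on average), whereas the epithelial adhesion gene Epcam had only 2.13 ± 0.603 and 4.42 ± 2.96 CPM.

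**Figure D1:**
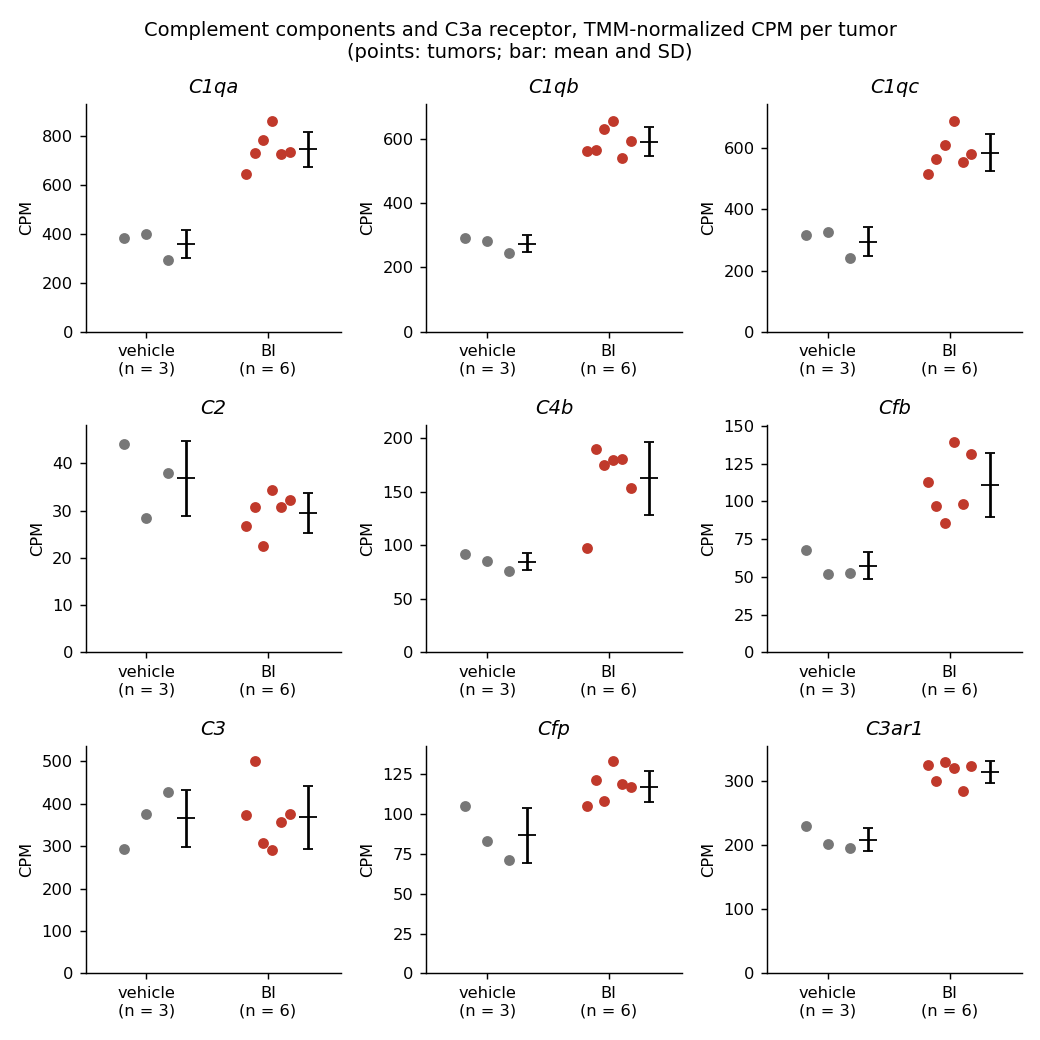
Expression of the 9 genes in CPM (vertical axes, starting at 0) in 3 vehicle-treated (grey) and 6 BI-treated (red) tumors, with 1 point per tumor and the mean and SD as black bars. The groups do not overlap for C1qa, C1qb, C1qc, C4b, Cfb, Cfp and C3ar1, whereas they overlap for C2 and C3.

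All 3 C1q chains rose, by 1.99-fold to 2.16-fold. C1qa had 384, 399 and 292 CPM in the vehicle-treated tumors and between 645 and 861 CPM in the BI-treated tumors, with a median of 732. Its mean changed from 358 ± 57.7 CPM (SD, n = 3) to 747 ± 71.2 CPM (SD, n = 6), with a log2 fold change of 1.06 ± 0.112 (SE, adjusted p = 6.63e-05). C1qb had 292, 283 and 244 CPM without the inhibitor and between 539 and 654 CPM with it (median 579), with a log2 fold change of 1.11 ± 0.0843 (SE, adjusted p = 1.29e-05). C1qc had 317, 326 and 241 CPM in the vehicle-treated and between 516 and 689 CPM in the BI-treated tumors (median 573), with a log2 fold change of 0.99 ± 0.112 (SE, adjusted p = 0.000103). For each chain the lowest BI-treated tumor was well above the highest vehicle-treated tumor. Vehicle replicate 3 was the lowest and BI replicate 7 the highest tumor for all 3 chains.

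The 3 chains assemble in equal numbers into the C1q molecule, and their genes lie side by side on the minus strand of chromosome 4 of mm9, within 18675 bases: C1qb (136436044 to 136442102), C1qc (136445719 to 136448980) and C1qa (136451832 to 136454718). Per kilobase of gene length (RPKM), the chains were also at similar levels, 331 for C1qa, 258 for C1qb and 280 for C1qc in vehicle-treated tumors, and 690, 557 and 556 in BI-treated tumors. Their levels per length exceeded those of 99.6%, 99.4% and 99.4% of the genes tested, in the same order. The ratio of C1qa to C1qb per length was between 1.17 and 1.38 in vehicle-treated and between 1.13 and 1.32 in BI-treated tumors, so that the ranges overlapped. That of C1qa to C1qc was between 1.18 and 1.19 in vehicle-treated and between 1.22 and 1.28 in BI-treated tumors, a small shift without overlap (6 of 6 BI-treated tumors above every vehicle-treated tumor). C1qc and C1qb could not be placed in order after treatment, since C1qb was the higher in 3 of 6 tumors.

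Promoter sequences for 5 of the 9 genes (C1qb, C1qc, C3, Cfp and C3ar1) were in the RefSeq promoter table, and C1qa, C2, C4b and Cfb had none there. The 250 bases before the start of C1qb (GRCm38.p6, chr4:136886201-136886450, minus strand) and of its neighbor C1qc (chr4:136892915-136893164, minus strand) are shown because these genes moved together, with motif matches in capitals.
C1qb: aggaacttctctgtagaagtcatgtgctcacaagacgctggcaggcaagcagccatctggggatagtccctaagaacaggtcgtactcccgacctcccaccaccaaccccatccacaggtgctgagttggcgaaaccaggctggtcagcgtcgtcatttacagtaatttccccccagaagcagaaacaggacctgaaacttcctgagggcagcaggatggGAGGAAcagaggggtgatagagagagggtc
C1qc: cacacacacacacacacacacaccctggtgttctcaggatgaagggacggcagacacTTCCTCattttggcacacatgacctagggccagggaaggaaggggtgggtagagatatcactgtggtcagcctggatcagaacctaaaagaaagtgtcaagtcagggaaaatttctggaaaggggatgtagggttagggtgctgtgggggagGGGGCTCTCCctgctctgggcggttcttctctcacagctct
Both held GAGGAA, the core bound by PU.1, a transcription factor of myeloid cells, and by related ETS factors. It lay 30 to 25 bases before the start in C1qb and, on the other strand, 193 to 188 bases before the start in C1qc. On either strand, 23.3% of all 32817 RefSeq promoter windows of this length held these 6 letters. C1qc also held a match to the NF-kappaB motif 41 to 32 bases before the start, as did 7.2% of all windows.

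Of 4 genes for the proteases that C1q activates, 3 fell. C1s1, which encodes C1s, had 294, 295 and 335 CPM in vehicle-treated tumors and between 153 and 199 CPM in BI-treated tumors (median 190), with a log2 fold change of -0.74 ± 0.081 (SE, adjusted p = 8.36e-05). Its copy C1s2 went from 26.5 ± 2.05 to 15.6 ± 1.67 CPM (log2 fold change -0.77, adjusted p = 0.00019). C1ra, which encodes C1r, had 86.1 ± 2.34 and 70.2 ± 8.11 CPM (log2 fold change -0.30, adjusted p = 0.0269), and its copy C1rb had 3.93 ± 0.244 and 3.00 ± 0.708 CPM (adjusted p = 0.165). None of the 4 rose, and for C1s1, C1s2 and C1ra every BI-treated tumor was below every vehicle-treated tumor, as for 14.0% of all genes tested. The pairs C1s1 and C1s2, and C1ra and C1rb, are similar in sequence, and counting of uniquely aligned reads may divide them unevenly. The call for C1ra was lost without vehicle replicate 1 (adjusted p = 0.0582), 2 (0.0729) or 3 (0.0946).

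Per length, the level of C1qa was between 2.41 and 3.73 times that of C1s1 in vehicle-treated tumors and between 9.65 and 14.1 times in BI-treated tumors. Over C1ra it was between 8.46 and 11.8 times and between 23.8 and 32.4 times, respectively. No BI-treated tumor reached the range of the vehicle-treated tumors in either ratio. Of the fibroblast markers, which mark a cell type known to make C1r and C1s, 1 of 8 rose (Col1a2) and 0 fell. Of all genes tested, 14.6% were called higher and 14.1% lower. The median log2 fold change of the 8 fibroblast markers was 0.54, and Col1a1 and Col3a1 narrowly missed the call (adjusted p = 0.0538 and 0.0570). Their summed level was between 1904 and 3314 CPM in vehicle-treated and between 2531 and 5690 CPM in BI-treated tumors, all 8 included. Krt8 and Krt18, keratins of the carcinoma cells, fell (478 to 394 CPM, adjusted p = 0.0444, and 579 to 409 CPM, adjusted p = 0.00636). The other 6 of 8 epithelial markers were not called, and the median log2 fold change of the 8 was 0.13. The summed level of the 8, most of it from Krt8 and Krt18, went from between 963 and 1191 to between 758 and 967 CPM. These ranges overlapped. The part of either cell type in the fall of C1s1 was not tested.

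**Figure D2:**
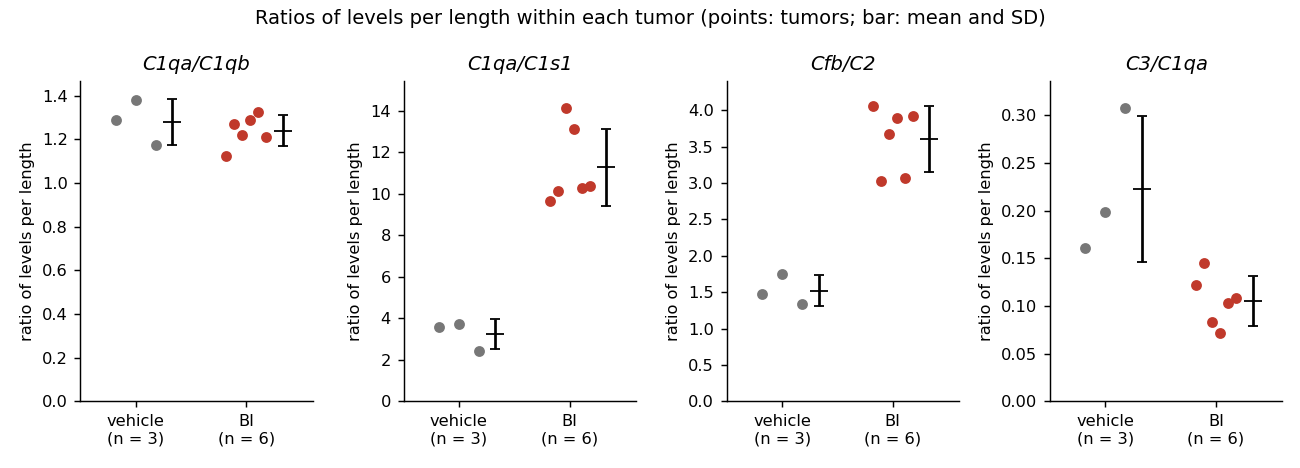
Ratios of levels per gene length within each tumor (vertical axes, starting at 0) for 3 vehicle-treated (grey) and 6 BI-treated (red) tumors, with the mean and SD as black bars. C1qa/C1qb overlaps between the groups, C1qa/C1s1 and Cfb/C2 are higher in every BI-treated tumor, and C3/C1qa is lower in every BI-treated tumor.

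Of C4 and C2, the substrates of C1s, C4 was called higher and C2 was not called. C4b, which encodes C4 (chromosome 17 of mm9, 34865325 to 34880827), had 92.2, 85.4 and 76.4 CPM in vehicle-treated tumors and between 97.5 and 189 CPM in BI-treated tumors (median 177). The mean rose from 84.7 ± 7.90 to 162 ± 34.0 CPM, with a log2 fold change of 0.94 ± 0.173 (SE, adjusted p = 0.00211). BI replicate 4, at 97.5 CPM, was close to the vehicle-treated tumors, and the other 5 BI-treated tumors had at least 153 CPM. C4b has a nearly identical neighbor, C4a, which had 5.57 ± 0.619 and 9.71 ± 2.26 CPM (log2 fold change 0.81, adjusted p = 0.010, and 0.0521 without vehicle replicate 3). Reads that fit both copies had been dropped, so the division between C4b and C4a is uncertain, although both were called higher.

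C2 had 44.1, 28.4 and 38.1 CPM in the vehicle-treated tumors and between 22.5 and 34.4 CPM in the BI-treated tumors, with a median of 30.8. The groups overlapped, with 2 of 6 BI-treated tumors below every vehicle-treated tumor. The log2 fold change was -0.32 ± 0.144 (SE, adjusted p = 0.118), and C2 was not called. Without vehicle replicate 2, the lowest of its group, it was -0.47 and called lower (adjusted p = 0.0305). C2 had the lowest level per length of the 9 genes in both groups, 13.9 and 11.2 RPKM. Its range overlapped that of C4b in vehicle-treated tumors, but not in BI-treated tumors, where C4b was between 18.1 and 35.1 RPKM and C2 between 8.49 and 13 RPKM.

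Cfb, the counterpart of C2 in the alternative pathway, lies next to it on chromosome 17 of mm9 (34993319 to 34999463, minus strand), 85 bases from C2 (34999549 to 35035397, minus strand). Cfb had 67.5, 51.7 and 52.9 CPM in vehicle-treated tumors and between 85.6 and 139 CPM in BI-treated tumors (median 105). Its log2 fold change was 0.95 ± 0.153 (SE, adjusted p = 0.000912), and no BI-treated tumor reached the vehicle group. Within each tumor, the level per length of Cfb was between 1.34 and 1.75 times that of C2 in the vehicle group and between 3.03 and 4.05 times in the BI group. The annotated gene Gm20547, on the same strand, shares 79.5% of the exonic bases of Cfb and 40.8% of those of C2, so that reads of a transcript spanning both genes would count for both.

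C3 encodes the protein on which all pathways converge (chromosome 17 of mm9, 57343397 to 57367559) and was not called. It had 293, 376 and 427 CPM in vehicle-treated tumors and between 291 and 501 CPM in BI-treated tumors (median 365), and the groups overlapped almost entirely. Means were 365 ± 67.6 and 368 ± 74.2 CPM, with a log2 fold change of 0.01 ± 0.158 (SE, adjusted p = 0.970), which does not show that its level was equal in both groups. BI replicate 5 was the highest tumor and BI replicate 7, the highest for C1q, the lowest. Per length, C3 followed the C1q chains in the order of mean levels in vehicle-treated tumors (71.1 RPKM), but its range overlapped that of Cfp (56.9 RPKM), which in turn overlapped that of C3ar1 (48.6 RPKM). In BI-treated tumors it had 71.6 RPKM, and its range overlapped those of Cfp (77.1 RPKM) and C3ar1 (73.1 RPKM). The ratio of C3 to C1qa per length was between 0.161 and 0.308 in vehicle-treated and between 0.0712 and 0.145 in BI-treated tumors. Its share of the summed level per length of the 9 genes was 6.63% on average in the vehicle group and 3.44% in the BI group. The 250 bases before the start of C3 (GRCm38.p6, chr17:57228137-57228386, minus strand), shown because C3 was not called while its partners C4b and Cfb were, held 1 match in capitals.
C3: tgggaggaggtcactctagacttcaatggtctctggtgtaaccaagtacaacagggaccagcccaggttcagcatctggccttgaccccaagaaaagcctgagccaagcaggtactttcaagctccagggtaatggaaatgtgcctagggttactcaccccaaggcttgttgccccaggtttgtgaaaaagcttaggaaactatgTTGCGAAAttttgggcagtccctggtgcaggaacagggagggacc
This was TTGCNNAA, a C/EBP motif, 45 to 38 bases before the start, which 9.6% of all windows held. The window held no GAGGAA, and neither did those of Cfp and C3ar1, which were called higher. It was in 2 of the 5 windows.

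Cfp (chromosome X of mm9, 20502580 to 20508681) encodes properdin, which neutrophils and other leukocytes release. It had 105, 83.5 and 71.5 CPM in vehicle-treated tumors and between 105 and 133 CPM in BI-treated tumors (median 118). The highest vehicle-treated tumor, replicate 1, nearly touched the lowest BI-treated tumor, replicate 4. The log2 fold change was 0.44 ± 0.11 (SE, adjusted p = 0.0113), a fold change of 1.36, below the 1.5-fold limit of the study. The call was lost without vehicle replicate 3 (log2 fold change 0.32, adjusted p = 0.0611). Of 7 neutrophil markers tested, 4 fell (S100a8, S100a9, Cxcr2 and Retnlg) and 0 rose, and the summed level of the list was between 525 and 754 CPM in vehicle-treated and between 222 and 374 CPM in BI-treated tumors. Ly6g was not analysed here. Their part in the level of Cfp was not tested.

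C3ar1 (chromosome 6 of mm9, 122797156 to 122806179) had 230, 202 and 195 CPM in vehicle-treated tumors and between 285 and 330 CPM in BI-treated tumors, with a median of 322. It rose from 209 ± 18.3 to 314 ± 17.3 CPM, with a log2 fold change of 0.59 ± 0.0709 (SE, adjusted p = 0.000145). Its spread within groups was narrow, and the groups were well apart. C3, the source of its ligand, was not called, and the ratio of C3ar1 to C3 per length was between 0.546 and 0.936 in the vehicle group and between 0.717 and 1.32 in the BI group. The 250 bases before the start of C3ar1 (GRCm38.p6, chr6:122856158-122856407, minus strand) are shown because it is the single receptor among the 9 genes.
C3ar1: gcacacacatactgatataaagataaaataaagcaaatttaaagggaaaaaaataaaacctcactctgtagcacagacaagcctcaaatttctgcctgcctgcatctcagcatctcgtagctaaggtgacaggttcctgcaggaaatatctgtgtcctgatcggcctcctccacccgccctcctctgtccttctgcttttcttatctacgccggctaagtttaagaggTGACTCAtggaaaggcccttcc
They held 1 match, to the AP-1 motif TGANTCA, which reads as a match on both strands, 22 to 16 bases before the start. This motif was in 6.8% of all windows. Also searched for on both strands, with no match in these 4 windows or in that of Cfp, were the IRF motif GAAANNGAA (7.1% of all windows), the STAT motif TTCNNNGAA (7.0%) and the TFEB motif TCACGTGA (0.8%).

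Macrophage markers rose together with C1q and C3ar1. Of 11 markers tested, 9 rose (among them Adgre1, from 81.2 to 155 CPM, and Csf1r, from 230 to 431 CPM), Cd14 fell (from 151 to 106 CPM) and Cd163 did not pass (48.7 and 83.3 CPM, adjusted p = 0.133). Marco was not analysed here. Their summed level was between 1574 and 2010 CPM in vehicle-treated and between 2391 and 3218 CPM in BI-treated tumors. More macrophages and more RNA of these genes per macrophage cannot be told apart in whole tumor pieces. Of a second list of 10 genes known from macrophages rich in C1q, 6 rose, including Apoe (551 to 1474 CPM) and Selenop (266 to 671 CPM), and 2 fell, Gpnmb and Axl. Its summed level was between 2120 and 2460 CPM and between 2999 and 3918 CPM. Markers of hepatocytes, the main source of plasma complement, summed to at most 0.638 CPM in any tumor, and none of the 7 passed the filter on low counts.

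Each of the 9 genes was also measured against the macrophage markers, as its log2 CPM minus their mean log2 CPM in the same tumor, and the groups were compared by two-sided exact permutation, in which the 84 possible divisions allow no p below 0.0238. These 9 p values are not adjusted. The mean of the markers includes Cd14, which fell (log2 fold change -0.52), and Adgre1, which rose most of them (0.93). Of the C1q-rich list, only Apoe (1.42) and Selenop (1.33) had a higher log2 fold change than C1qb (1.11). C1qb rose more than the mean of the macrophage markers, by 0.45 in log2 CPM (exact p = 0.0238). For C1qb, 6 of 6 values with BI lay above all values with vehicle. C1qa differed by 0.40 (5 of 6, exact p = 0.0476, but 0.0714 without any one of BI replicates 5 to 9) and C1qc by 0.33 (4 of 6, exact p = 0.0714). C2 and C3 were lower relative to the markers, by -0.97 and -0.66, each with 6 of 6 values with BI below all values with vehicle (exact p = 0.0238 for both), but with the C1q-rich list as reference by -0.73 and -0.42 (exact p = 0.0714 and 0.0952). Differences of C4b (0.25, exact p = 0.357, but 0.40 and 0.0357 without BI replicate 4), Cfb (0.27, exact p = 0.310), Cfp (-0.21, exact p = 0.310) and C3ar1 (-0.07, exact p = 0.524) were not larger than the spread between tumors. For C3ar1 and Cfp the sign depended on the reference list, with differences of 0.17 and 0.03 against the C1q-rich list. Against that list, C1qa, C1qb and C1qc differed by 0.65, 0.69 and 0.58 (exact p = 0.0238 for each). C4b and Cfb differed by 0.49 and 0.52 (exact p = 0.0714 and 0.0952).

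**Figure D3:**
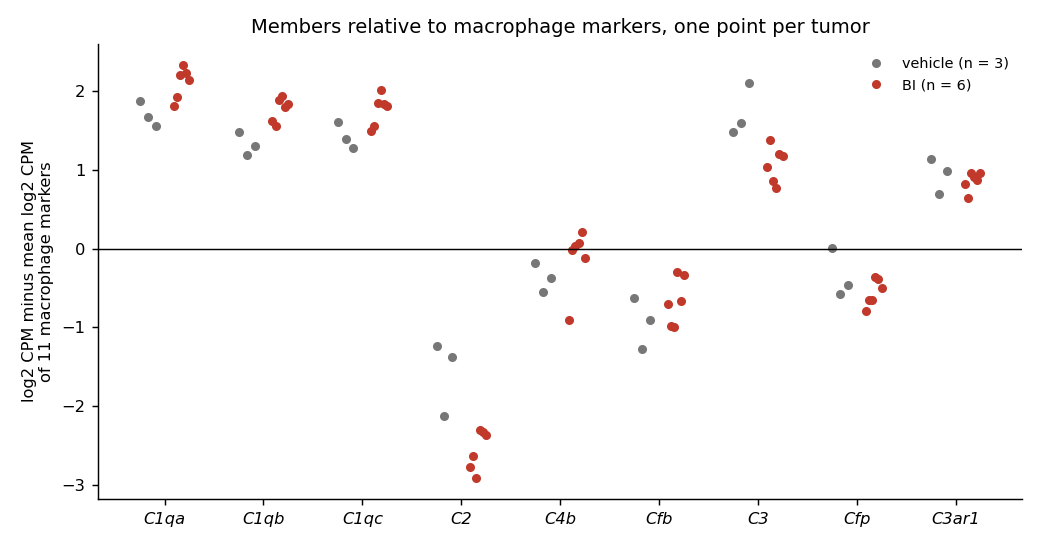
Log2 CPM of each of the 9 genes minus the mean log2 CPM of 11 macrophage markers (vertical axis) in 3 vehicle-treated (grey) and 6 BI-treated (red) tumors, 1 point per tumor. C1qb lies higher and C2 and C3 lie lower in every BI-treated tumor, whereas C3ar1, Cfp and Cfb overlap between the groups.

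The profile of each gene over the 9 tumors was compared with those of the 12186 genes tested that had a mean log2 CPM of at least 1, by the root mean square difference of log2 CPM after subtracting each gene's mean. C1qa and C1qc were nearest to each other of all these genes, at 0.039. The gene nearest to C1qb was Pirb, an inhibitory receptor of myeloid and B cells, at 0.066, with a log2 fold change of 1.04. It was also the second nearest to C1qa and to C1qc. Nearest to C3ar1 were Lyn, a Src family kinase of leukocytes, at 0.063, the prostaglandin E2 receptor gene Ptger4 at 0.064 and Nckap1l, a regulator of actin in blood cells, at 0.065. Nearest to Cfp was Irf8, a transcription factor of the myeloid lineage, at 0.072, and nearest to Cfb was Clec4a2, a lectin receptor of myeloid cells, at 0.082. For C4b it was its copy C4a, at 0.117. For C3 it was Fzd4, a Wnt receptor, at 0.122, and for C2 it was Mamstr, a coactivator in muscle, at 0.107. The next nearest were Rassf2 and Nfatc2 for C1qb, Slc12a9 and Mfng for Cfp, Lax1 and Ptpro for Cfb, and Tmem86a and Il21r for C4b. For C3 they were Zfp128 and Klhl15, and for C2 Xylb and Haus5. The distance takes in the difference between the groups, so genes of similar log2 fold change lie near each other. A shared cell type was not tested.

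Of 45 other complement genes listed, proteases included, 27 passed the filter on low counts. Of these 27, 10 were called higher (37%, against 14.6% of all genes tested) and 4 lower (14.8%, against 14.1%). These genes, too, were listed with earlier results known, so the shares are not a test. In the lectin pathway, Colec12, a scavenger receptor with a collagen-like domain, was the 1 of 4 genes tested that was called, with 66.7, 64.1 and 71.1 CPM in the vehicle group and between 95.2 and 110 CPM in the BI group (log2 fold change 0.61, adjusted p = 4.55e-05). Masp1, a protease of this pathway, had 52.2 ± 7.10 and 61.6 ± 19.4 CPM (adjusted p = 0.419). Cfd, the protease that activates factor B and a product of fat cells, had 15.9, 6.93 and 15.2 CPM in the vehicle group and between 9.92 and 91.5 CPM in the BI group, without passing the test (log2 fold change 1.43 ± 0.65 SE, adjusted p = 0.121). It was highest in BI replicates 9 and 5. Of 7 adipocyte markers, 2 rose (Pck1 and Lipe), and their summed level was between 25.9 and 31.5 CPM and between 28.7 and 88.7 CPM.

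Of 7 genes listed for the terminal pathway, which forms the membrane pore, 3 passed the filter on low counts, 2 of which rose. C6 had 3.44, 2.91 and 2.65 CPM in vehicle-treated tumors and between 11 and 43.6 CPM in BI-treated tumors (median 21.3), a 7.51-fold change (log2 fold change 2.91 ± 0.446 SE, adjusted p = 0.000657). This was the largest change of the complement genes tested, and the lowest BI-treated tumor was still well above the vehicle group. Hc, which encodes C5, rose from 6.6 ± 1.06 to 11.7 ± 1.69 CPM (log2 fold change 0.82, adjusted p = 0.00167). C7, C8a and C9 had at most 5 counts in any tumor, no more than 0.236 CPM.

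Among the other complement receptors, 3 of 7 tested rose and 1 fell. Itgam and Itgb2, which together encode complement receptor 3 for C3 fragments, had log2 fold changes of 0.53 (adjusted p = 0.00203) and 0.29 (adjusted p = 0.0051), and Itgb2 had the highest mean level per length of these receptors, although Itgam exceeded it in BI replicates 4 and 9. Cd93, once described as a C1q receptor, went from 162 ± 7.72 to 222 ± 41.1 CPM (adjusted p = 0.0244, and between 0.0574 and 0.0984 without any single vehicle-treated tumor). Of the receptors for C5a, C5ar1 had 89.8 ± 11.4 and 97.7 ± 5.88 CPM (adjusted p = 0.277), whereas C5ar2 fell from 9.34 ± 2.11 to 5.49 ± 1.40 CPM (log2 fold change -0.77, adjusted p = 0.0155), a call lost without vehicle replicate 1 (0.0757) or 3 (0.0743).

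Among the soluble regulators, Serping1, the inhibitor of C1r and C1s, had 59.9, 61.1 and 84 CPM in vehicle-treated tumors and between 91.4 and 142 CPM in BI-treated tumors (log2 fold change 0.76, adjusted p = 0.00249). It was higher in every BI-treated tumor. Clu, which encodes clusterin and had the highest level per length of the soluble regulators, had 351 ± 96.3 and 329 ± 107 CPM (adjusted p = 0.814). Of 4 membrane regulators tested, Cd55 rose, from 2.26 ± 0.118 to 3.90 ± 1.18 CPM (adjusted p = 0.0324), a call lost without any one of 5 tumors (vehicle replicates 1 to 3, BI replicates 4 and 5). The most abundant of them, Cr1l, which encodes the rodent regulator Crry, had 49.1 ± 1.90 and 54.3 ± 4.24 CPM (adjusted p = 0.151).

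**Figure D4:**
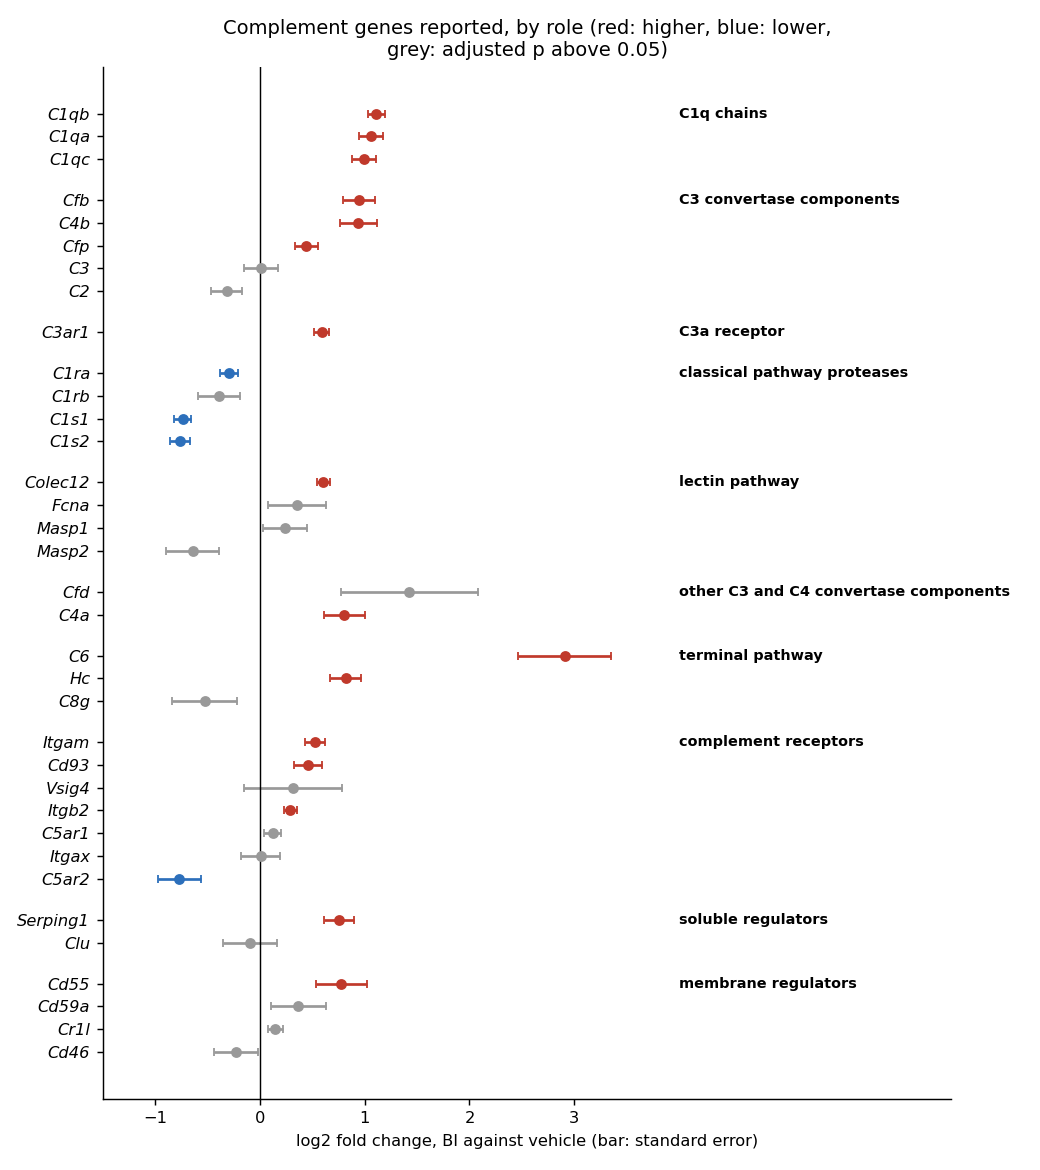
Log2 fold change between BI-treated and vehicle-treated tumors (horizontal axis) for the complement genes reported here, grouped by role, with the standard error as bars. Red points were called higher, blue points lower, and grey points had an adjusted p above 0.05. The C1q chains lie near 1, the C1r and C1s genes below 0, and C6 near 3.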

How the data were processed

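RNA from snap-frozen pieces of 9 tumors was sequenced as stranded, paired-end mRNA libraries. The authors aligned reads to mm9 with STAR, keeping unique alignments, and counted with QuasR the reads starting in any exon of a RefSeq gene. The deposited counts are raw, without normalization. Whether strand was used in counting is not given in the sources used here. The deposited gene lengths served to compute RPKM from TMM-normalized CPM.

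For 18700 of 18755 Entrez identifiers RefSeq gave a symbol, and mm9 positions are those of GENCODE vM1. BI and vehicle were compared by the quasi-likelihood test of edgeR 4.0.16 (R 4.3.3), with no covariate, after filterByExpr (minimum count 10, minimum total 15) and TMM scaling. Standard errors are the log2 fold change over the root of F. Log2 CPM used a prior count of 2. The test was tested on simulated data. Single values per tumor were compared by two-sided exact permutation. A floor of 3 counts was 0.0886 to 0.177 CPM and covers counting error only. No 2 libraries were alike within sampling noise (mean chi-square per gene at least 8.70).

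The 9 genes, the gene lists and the motifs were chosen with earlier results of these data known. Named are the 9 genes, the called complement genes and the most abundant of each list, the 3 nearest profiles (in part) and markers of macrophages, C1q-rich macrophages, monocytes, dendritic cells, neutrophils, T cells, B cells, mast cells, fibroblasts, endothelium, adipocytes, epithelial tumor cells, hepatocytes and erythroid cells. Of 161 list entries, 154 had a row. A tested complement gene is counted in the totals but not reported here by name. Alternatives were RLE, library size, other filters, DESeq2 1.42.0, limma-voom (limma 3.58.1), the likelihood ratio test, the cutoffs of the study, a prior count of 0.5, another reference list and leaving out each tumor.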

Additional observations from a re-analysis of the deposited data

How the results depend on the processing

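The 9 genes gave 6 to 7 calls of higher expression and 0 to 1 of lower expression with each tumor left out in turn, and the other complement genes 7 to 10 and 2 to 5. Lower calls numbered 1 among the 9 genes without vehicle replicate 2 (C2) and 2 among the others without vehicle replicate 3 (C1s1 and C1s2). The cutoffs of the study gave 6 and 0 calls, and 8 and 4. Of 26 genes followed, 17 kept direction and side of the threshold under all 16 alternatives. C3 ranged from -0.13 to 0.14 and Clu from -0.26 to 0.13 in log2 fold change with tumors left out.

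Relative to macrophage markers, replacing the list by the C1q-rich list gave 0.58 for C1qc, -0.73 for C2, -0.42 for C3, 0.031 for Cfp and 0.17 for C3ar1. All 9 genes shifted by the same amount, because only the mean subtracted had changed. Between the groups, mean log2 CPM rose by 0.66 for the macrophage list and by 0.42 for the C1q-rich list. The mean of the C1q-rich list includes Gpnmb and Axl, which fell (log2 fold change -1.49 and -0.47), and Apoe, which rose most (1.42). Why the lists differ was not tested. With tumors left out, the difference ranged from 0.33 to 0.49 for C1qa, from 0.16 to 0.40 for C4b and from -0.20 to 0.026 for C3ar1 (highest without vehicle replicate 1). The exact p of C1qa was 0.0714 without any one of BI replicates 5 to 9. With 2 vehicle-treated tumors the smallest exact p is 0.0714, so that test cannot pass there. No paired analysis was possible because the labels give the groups no shared replicate numbers.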

Other observations

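Markers of other leukocytes were measured beside the complement genes, since several of these cells make complement components or carry the receptors. Of 7 T cell markers tested, 6 rose, and of 7 dendritic cell markers 5 rose, including Xcr1 (2.73 to 6.93 CPM) and Clec9a (1.80 to 4.33 CPM) of cross-presenting cells. Of 6 monocyte markers 3 rose, of 6 mast cell markers 5 and of 5 B cell markers 3, and in each of these 5 lists 0 fell. Of 8 endothelial markers 4 rose and 0 fell. None of 5 erythroid markers passed edgeR's test, nor had any an unadjusted p under 0.05. Of the dendritic cell markers, Ccr7 had the highest level (35.9 and 75.9 CPM), while Zbtb46 (8.64 and 8.27 CPM) and Siglech were not called. The summed level of the dendritic cell markers was between 48.4 and 59.6 CPM in vehicle-treated and between 88.0 and 149 CPM in BI-treated tumors. That of the monocyte markers was between 440 and 533 and between 622 and 891 CPM. Their part in the rise of C1q was not tested.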
